A study of Mus musculus with 6 samples.

Results

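The large H3K27me3 domains of untreated mouse colonic organoids were the autosomal H3K27me3 peaks that spanned at least 15000 bp in the wt library. They were selected on their width in that list, and 828 of its 30347 autosomal peaks qualified. The domains made up 2.73% of the peaks but 21.5% of the bases under them, 21.8 Mb in all, which is 0.886% of the autosomes. Widths ran from 15037 to 228103 bp with a median of 21074 bp, and 53 domains reached 50000 bp.

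The organoids were C57BL/6 wt colonic epithelium grown in three-dimensional culture, either untreated (wt) or given the inflammatory cytokine TNFα at 40 ng/ml for 3 weeks (wt+TNFα). Each condition had 1 H3K27me3 library, 1 H3K4me3 library and 1 input, so differences between the conditions carry no p-value. The peak lists hold no read counts, so the reads behind a single peak are unknown. The study's reporting summary gives similar read totals for both H3K27me3 libraries. It gives more reads for the wt+TNFα than for the wt H3K4me3 library, and likewise for the inputs that served as control. The part of these depths in the comparisons between the conditions was not tested.

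The 2 cultures differed outside the domains as well. On chromosome X, H3K27me3 peaks spanned 0.597 Mb of the untreated and 74.7 Mb of the treated culture, and on chromosome Y there were 3 H3K4me3 peaks and 0, respectively. In every comparison between the conditions, treatment and a culture difference cannot be told apart. The epithelial label was checked on its markers, with H3K4me3 at 11 of 12 epithelial markers in wt and 10 in wt+TNFα, and at none of 20 markers of blood, stroma, vessels and neurons. Of the epithelial markers Lgr5 had no H3K4me3 peak in either condition and Krt20 had 1 in wt only.

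H3K27me3 is written by Polycomb repressive complex 2 and marks genes held silent, in particular the transcription factors that set body plan and cell identity. In differentiated tissues such as the gut epithelium, the regulators of other lineages usually lie under broad blankets of this mark, often centred on CpG-rich promoters. H3K4me3 marks promoters that are active or ready to be activated, and a promoter with both marks is called bivalent. In a population of cells, both marks on one chromosome cannot be told apart from each mark in different cells.

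The sequences below show the DNA of H3K4me3 peaks that were called inside domains in 1 condition only. Each is 200 bases of the GRCm38.p6 plus strand from RefSeq, centred on an H3K4me3 summit, with CG dinucleotides in capitals. The first 3 are from the domains with H3K4me3 only in wt that had the highest fold enrichment.
Qk, chr17:10318959-10319158: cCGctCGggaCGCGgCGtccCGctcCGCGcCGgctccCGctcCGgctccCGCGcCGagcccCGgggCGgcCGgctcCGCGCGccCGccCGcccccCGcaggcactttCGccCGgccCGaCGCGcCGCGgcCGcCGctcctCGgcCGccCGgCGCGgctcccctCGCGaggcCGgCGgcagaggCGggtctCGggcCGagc
Gsc, chr12:104473142-104473341: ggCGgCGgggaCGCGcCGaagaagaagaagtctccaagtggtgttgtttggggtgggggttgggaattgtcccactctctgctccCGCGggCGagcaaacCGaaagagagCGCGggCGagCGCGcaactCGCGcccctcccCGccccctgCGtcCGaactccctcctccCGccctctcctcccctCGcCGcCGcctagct
Prex1, chr2:166713527-166713726: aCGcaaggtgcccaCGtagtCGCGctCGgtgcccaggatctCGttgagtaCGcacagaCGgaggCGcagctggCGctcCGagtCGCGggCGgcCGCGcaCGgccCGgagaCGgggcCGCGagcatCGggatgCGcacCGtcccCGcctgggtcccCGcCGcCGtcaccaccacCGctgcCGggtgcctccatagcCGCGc
The next 3 are from the domains with H3K4me3 only in wt+TNFα, chosen in the same way.
Hoxb6, chr11:96293227-96293426: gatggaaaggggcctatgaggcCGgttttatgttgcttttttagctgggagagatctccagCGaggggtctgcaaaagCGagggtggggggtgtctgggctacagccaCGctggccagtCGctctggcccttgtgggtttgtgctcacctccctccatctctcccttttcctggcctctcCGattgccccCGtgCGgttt
Gcnt2, chr13:40860331-40860530: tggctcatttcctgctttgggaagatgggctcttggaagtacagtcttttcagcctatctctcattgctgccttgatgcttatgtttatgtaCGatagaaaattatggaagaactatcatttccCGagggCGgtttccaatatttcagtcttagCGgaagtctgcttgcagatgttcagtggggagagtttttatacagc
Fam20c, chr5:138755298-138755497: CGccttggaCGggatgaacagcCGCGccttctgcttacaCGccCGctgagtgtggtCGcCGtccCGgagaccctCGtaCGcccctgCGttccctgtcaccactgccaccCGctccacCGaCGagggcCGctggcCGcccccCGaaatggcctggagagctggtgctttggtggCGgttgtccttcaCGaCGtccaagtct
These windows held 44, 23 and 32 CG dinucleotides for the wt-only islands, against 8, 4 and 21 for those called only in wt+TNFα. The Hoxb6 and Gcnt2 summits lay 850 and 676 bp from the nearest protein-coding start, and the others at most 310 bp from it. The next wt+TNFα-only islands by fold enrichment, at Neurl1a and Rbm20, were CpG-rich, with 119 and 94.00 CG dinucleotides per kb over the whole island.

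For contrast, 2 stretches without H3K4me3 in either condition are shown. Uncx, a paired-type homeobox gene of the somites, lies in a domain of 114072 bp that wt+TNFα peaks covered completely, and its 300-base RefSeq promoter (plus strand) held 26 CG dinucleotides. The centre of the widest domain without a protein-coding start, on chromosome 13, held 2 in 200 bases.
Uncx, chr5:139543648-139543947: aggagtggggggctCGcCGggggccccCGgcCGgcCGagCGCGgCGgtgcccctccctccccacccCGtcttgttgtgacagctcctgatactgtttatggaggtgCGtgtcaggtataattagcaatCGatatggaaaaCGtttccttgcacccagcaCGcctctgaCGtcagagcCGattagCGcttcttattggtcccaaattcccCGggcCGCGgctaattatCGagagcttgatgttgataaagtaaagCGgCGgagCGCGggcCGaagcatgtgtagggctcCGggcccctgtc
Centre of the chromosome 13 domain, chr13:52758085-52758284: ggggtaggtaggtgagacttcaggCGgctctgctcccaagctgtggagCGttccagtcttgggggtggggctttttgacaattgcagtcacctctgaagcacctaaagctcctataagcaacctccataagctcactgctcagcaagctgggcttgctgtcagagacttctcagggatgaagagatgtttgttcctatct

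Genes of early development lay in 6 of the 10 widest domains and in 20 of the 53 domains of at least 50000 bp. A Hoxc domain, chr15:102898716-103126818, spanned 228103 bp and held Hoxc4 to Hoxc13, which specify position along the body axis. It was followed by a domain of 130377 bp over Evx2 and the Hoxd genes (chr2:74643446-74773822), a domain of 120537 bp on chromosome 13 with no protein-coding start, the Uncx domain, and a domain of 112833 bp over Hoxb1 to Hoxb8 (chr11:96274327-96387159). The other 5 of the 10 widest were Fam234b/Gsg1/Hebp1 (104433 bp), Nkx2-3 (96139 bp), Tbx4 (85382 bp), Vav2 (84128 bp) and Itpripl2/Syt17 (81569 bp). Nkx2-3 is a homeobox factor of visceral mesoderm, Tbx4 a T-box factor of the hindlimb, and Vav2 a guanine nucleotide exchange factor. As properties of the list that chose them, the wt fold enrichments over input ran from 2.07 to 5.06 with a median of 3.01. Just inside the width threshold lay domains of 15037 bp (Adgrb1), 15073 bp (Macf1) and 15087 bp (Creg2). Just outside were peaks of 14997 bp (no protein-coding start), 14997 bp (Slc38a3) and 14998 bp (no protein-coding start).

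Of 468 autosomal genes on the developmental transcription factor lists, 202 had a transcript start in a large domain (43.2%). Over all 20780 autosomal protein-coding genes the share was 3.27%, or 680 genes. At least 1 developmental factor lay in 173 domains, 20.9% (exact 95% interval 18.2 to 23.8%, which covers counting over domains only), against 1.05% of all wt H3K27me3 peaks. Wider peaks hold more bases and thus more genes, so density was compared as well. Developmental genes numbered 9.26 per Mb of large domain, 4.73 per Mb of peaks of 10000 to 15000 bp and 1.67 per Mb of all peaks below 15000 bp, while all protein-coding genes were less dense in the domains, 31.2 per Mb against 46.7 and 43.1.

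The ANTP-type homeobox lists had the highest shares. Other ANTP and NK homeobox genes had 41 of 58 members in domains, among them Evx2, Nkx2-3, Tlx1 and Vax2. Of the Hox genes, 26 of 39 lay in 3 domains. The Hoxa cluster, without H3K27me3 in either condition, held 14 H3K4me3 peaks in wt and 16 after TNFα. Of the other homeobox lists, paired-type genes had 21 of 37 (Uncx, Pax2, Pax3 and Pitx1), and LIM, POU, TALE and related genes 27 of 60 (Lmx1b, Lhx2, Onecut3 and Lhx4).

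Factors outside the homeobox class were also frequent. T-box genes had 9 of 15 in domains (Tbx4, Tbx2, Tbx3 and Tbx15), the GATA, TFAP2, RUNX, EBF and DMRT list 12 of 24 (Tfap2a, Dmrt3, Runx3 and Gata4), and zinc finger factors 27 of 65 (Zic1, Zic2, Zic4 and Zic5, in a pair of domains). Forkhead genes followed with 15 of 41 (Foxf2, Foxo6, Foxd1 and Foxe1), Sox genes with 5 of 18 (Sox1, Sox2, Sox8 and Sox14), and basic helix-loop-helix genes with 16 of 66 (Neurod2, Hand2, Olig2 and Sim2). Nuclear receptors were the exception among transcription factors, with 3 of 45 (Nr2e1, Nr2f1 and Nr5a1).

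**Figure D1:**
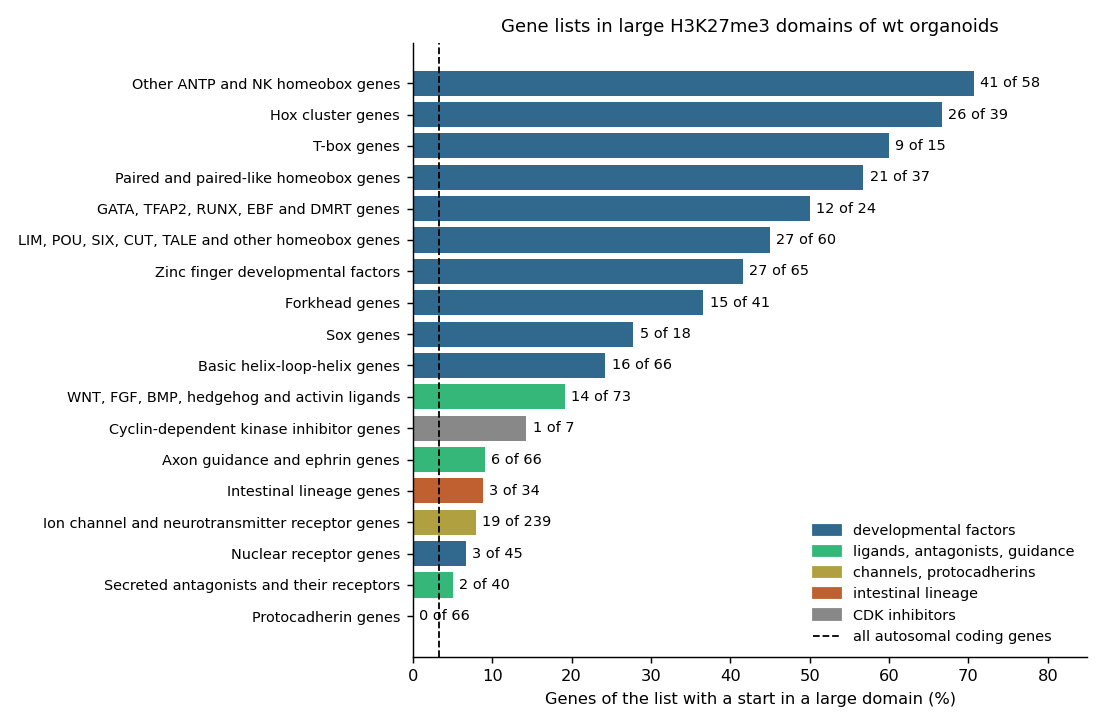
Percent of each gene list with a transcript start in a large H3K27me3 domain of wt organoids, with the counts beside each bar and all autosomal protein-coding genes as a dashed line at 3.27%. Homeobox, T-box and GATA-type lists stand at 45% or above, and nuclear receptors at 6.67%.

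Signalling genes were present at lower shares. Among WNT, FGF, BMP, hedgehog and activin ligands 14 of 73 lay in domains, for example Inhbb, Wnt6, Wnt10a and Wnt3a, and a further 37 lay only in shorter peaks. Secreted antagonists and their receptors had 2 of 40 (Fzd2 and Fzd3), axon guidance genes 6 of 66 (Ntn1, Epha8, Ntn4 and Sema6b) and ion channel and neurotransmitter receptor genes 19 of 239 (Cacna1g, Kcnj9 and Kcnj10). No protocadherin gene of 66 did. Of 34 intestinal lineage genes 3 did, namely Gata4, a factor of the proximal intestine, Pou2f3, which specifies tuft cells, and Muc2, the goblet cell mucin. Of 7 cyclin-dependent kinase inhibitor genes, Cdkn2a was in a domain.

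Developmental genes were wrapped more completely by their domains. The whole gene lay inside for 142 of the 202, against 147 of the 478 other genes. Domains with a developmental gene had medians of 26807 bp in width and 3.699 in wt fold enrichment, those with other protein-coding starts 20456 bp and 3.05, and the 272 with none 20059 bp and 2.53. Of those 272, 102 overlapped the body of a protein-coding gene and 170 did not. A start of a gene that is not protein-coding lay in 91 of the 272. The 3 widest lay on chromosome 13 (120537 bp), on chromosome 18 next to Svil (80922 bp) and on chromosome 10 over Sobp (75301 bp).

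The domains were richer in CpG than shorter wt peaks, with medians of 16.02 and 11.2 CG dinucleotides per kb. Domains with a developmental gene had 22.0 per kb and those with no protein-coding start 12.3. Of all domains, 83.3% lay above the median of the shorter peaks. When both classes were limited to peaks with a −log10 q of at least 2, the share was 20.5%, so the direction turned with this filter. CG dinucleotides were also counted in the 300 bases from 250 upstream to 50 downstream of the gene start. The median was 17 for the 198 developmental genes with their outermost 5′ end in a domain. It was 15 for the 421 other genes with that end in a domain and 12 for all autosomal protein-coding genes. Of all genes placed in domains by that end, those with an H3K4me3 peak at the promoter in either condition had a median of 27 (111 genes) and those without one 15 (508 genes). Genes with only another start in a domain were left out here.

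Islands of H3K4me3, which are peaks that overlap a domain, were found at a minority of domains. In wt, 135 H3K4me3 peaks overlapped 123 domains, 14.9% (interval 12.5 to 17.5%), and in wt+TNFα 143 peaks overlapped 126 domains, 15.2% (12.8 to 17.9%). Over all autosomal wt H3K27me3 peaks the shares were 2.67% and 3.02%. Per base the order was the reverse, since H3K4me3 peaks took up 0.493% of domain bases in wt and 0.646% in wt+TNFα, against 0.585% and 0.772% of the bases of shorter peaks. Both conditions had an island in 105 domains, 18 had one only in wt, 21 only in wt+TNFα and 684 in neither. Islands wholly inside a domain numbered 125 in wt and 131 in wt+TNFα, in 117 and 119 domains. The other 10 and 12 crossed a domain edge.

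These islands were small, weak and dense in CpG. The median wt island was 761 bp wide with a fold enrichment of 9.35 and 108 CG dinucleotides per kb, while wt H3K4me3 peaks elsewhere on autosomes had medians of 1427 bp, 25.3 and 53.8. In wt+TNFα the medians were 772 bp, 8.91 and 102, against 1528 bp, 27.7 and 51.0 elsewhere. The weakness was not particular to large domains. Among wt peaks called in both conditions, the median wt fold enrichment was 10.2 in the domains, 11.6 in shorter H3K27me3 peaks and 26.8 outside H3K27me3. The summit lay within 1000 bp of a protein-coding start for 99 wt islands, 73.3% against 88.7% of wt peaks elsewhere. That gene was developmental for 25 of the 99, while 29.7% of the genes in domains were. When H3K4me3 peaks were limited to those above the median strength of their list, 5 domains held one in wt and 8 in wt+TNFα.

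Within the domains, 27 of 202 developmental genes had an H3K4me3 peak within 1000 bp of a start in each condition, of which 20 were the same genes. The other genes in domains had similar shares, with 68 of 478 in wt and 74 in wt+TNFα. The 7 found only in wt were Msx1, Foxf1, Foxl2, Gsc, Gata4, Zic5 and Sall3, and the 7 found only in wt+TNFα were Hoxb6, Hoxb7, Hoxd9, Hoxd11, Heyl, Onecut1 and Sp8. Gata3 (fold enrichment 10.9 in wt and 10.5 in wt+TNFα), a T cell and epithelial factor, Meis2 (11.02 and 10.5), a partner of Hox proteins, and Foxc1 (9.46 and 10.3), a mesodermal forkhead factor, kept similar islands under complete H3K27me3.

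Most of the 828 domains were still under H3K27me3 in wt+TNFα. Peaks of that library covered 93.4% of domain bases, and 707 domains (85.4%, interval 82.8 to 87.7%) were covered over at least 90% of their length, against 65.7% of all autosomal wt peaks. Only 8 domains had no wt+TNFα peak at all (0.966%), compared with 14.9% of all wt peaks. This was not particular to the large domains, since wt peaks of 10000 to 15000 bp had 94.2% of their bases covered, 82.6% covered over at least 90% and 0.422% without a wt+TNFα peak. Peak strength also differed, with a median wt −log10 q of 4.37 in the domains and 0.763 in shorter peaks. A −log10 q of 2 was reached by 663 of the domains, and the part of peak strength in the cover was not tested. The wt+TNFα list was longer, with 227.9 Mb on autosomes against 101.5 Mb in wt. When its peaks were taken from the highest −log10 q down until both lists covered the same length, 90.3% of domain bases were covered. The domains stood at a median percentile of 96.6 by fold enrichment in the wt+TNFα list, so this cut favoured them. The part of list length in the cover was not tested. Peaks of at least 15000 bp in that list numbered 2876, of which 718 overlapped a domain, and 757 of the domains (91.4%) overlapped such a peak. Signal over the domains was also high in that library, with a median fold enrichment of 3.06 against 1.90 for its whole autosomal list. For 524 domains a single peak covered every base. The median width of those peaks was 39032 bp, 1.62 times the domain. The wt+TNFα peaks passed both edges of 584 domains, and 109 domains shared a wt+TNFα peak with another domain.

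Domains with a developmental gene were the best covered. None of the 173 was covered over less than 50% of its length, and 97.8% of their bases were under wt+TNFα peaks. The figure was 92.8% for domains with other protein-coding starts and 90.4% for those with none. Median wt −log10 q ran in the same order, at 7.80, 4.67 and 2.24, and its part in the cover was not tested. At 192 of the 202 developmental genes, every base within 1000 bp of the starts in the domain was covered, as it was at 425 of the 478 other genes.

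**Figure D2:**
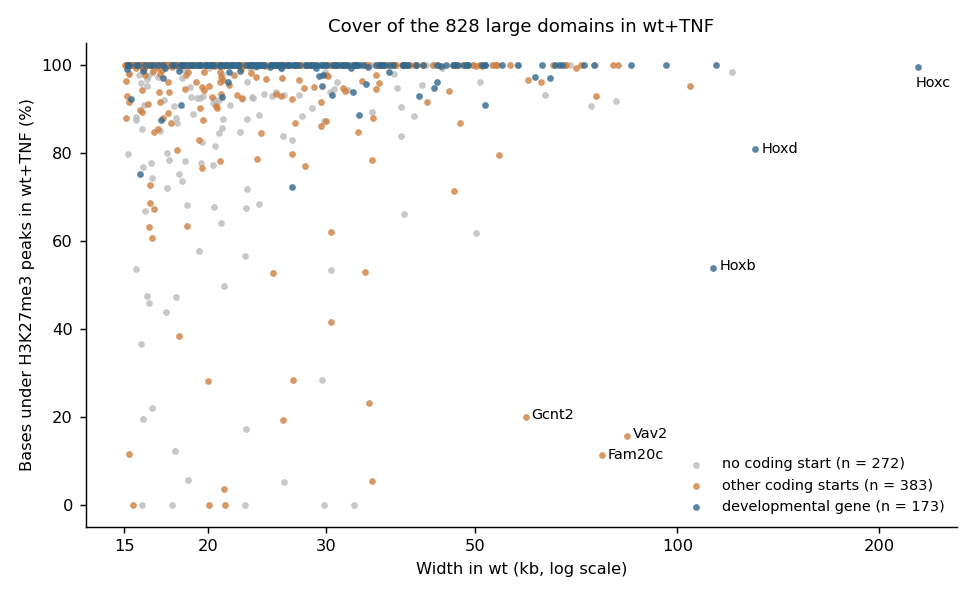
Percent of the bases of each large domain under wt+TNFα H3K27me3 peaks (vertical axis) against its width in wt (kb, log scale), 1 point per domain, coloured by the genes inside. Points crowd at 100%, and Hoxb (53.8%) and Hoxd (80.9%) stand below the other wide developmental domains.

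A domain in more than 1 wt+TNFα piece was seen 137 times (16.5%, interval 14.1 to 19.3%), against 2.02% of all wt peaks, a share that rose with width. It was 11.6% at 15000 to 20000 bp, 18.9% up to 50000 bp and 30.2% above. Most of the broken domains, 101, were in 2 pieces, 28 in 3, 5 in 4 and 3 in 5. Broken domains made up 5.78% of those with a developmental gene, 13.1% of those with other protein-coding starts and 28.3% of those with none. This is the reverse of the order of median wt −log10 q in these classes. With wt+TNFα lists limited to equal covered length, 60 domains had more than 1 piece.

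**Figure D3:**
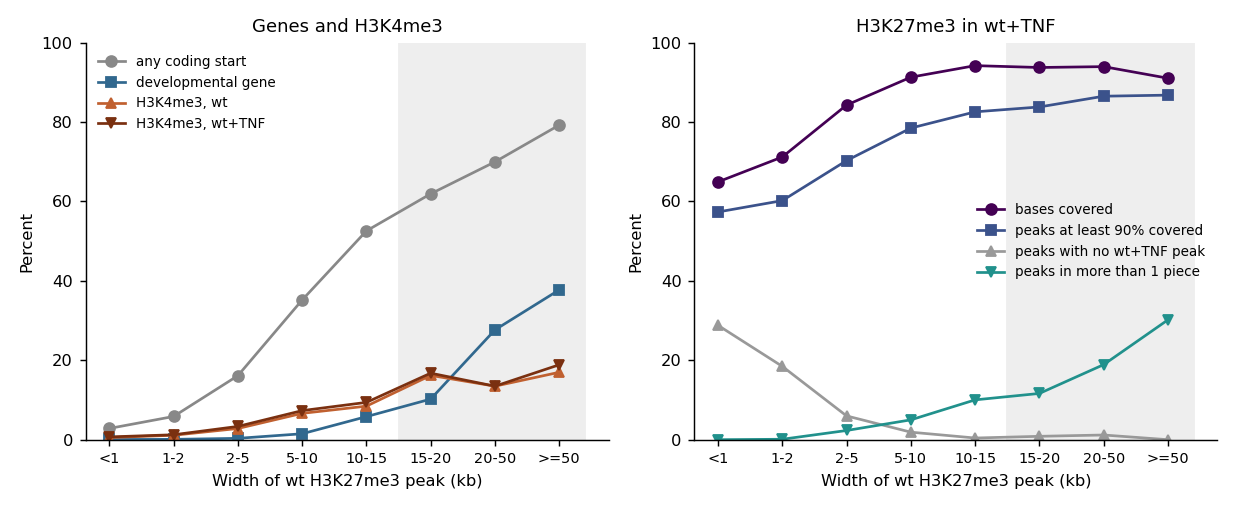
Shares of autosomal wt H3K27me3 peaks by width class (kb), with the large domains on a grey ground. Left, percent with any protein-coding start, a developmental gene or an H3K4me3 peak. Right, percent of bases covered in wt+TNFα and percent of peaks at least 90% covered, without a wt+TNFα peak or in more than 1 piece. Developmental genes reach 37.7% and pieces 30.2% in the widest class.

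The domains with little or no H3K27me3 in the wt+TNFα list lay outside developmental genes. With no wt+TNFα H3K27me3 peak were domains at Map4k4, a kinase of the stress pathway (21183 bp), a pair in the body of Vav2 (15913 and 29758 bp), Lor, the epidermal barrier protein loricrin (20036 bp), chr4:88930219-88963202 near Ifne (32984 bp), the body of Map6 (22649 bp), and Adamts15, a secreted metalloproteinase, with its neighbour (15448 and 17645 bp). Syt7 followed at 3.61% covered and a domain on chromosome 3 near Pfn2 at 5.23%. In all, 33 domains (3.99%) were less than 50% covered, against 22.4% of all autosomal wt peaks and 2.75% of those of 10000 to 15000 bp.

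Vav2 and Fam20c were the widest of these. The Vav2 domain, chr2:27353197-27437324, kept 15.7% of its 84128 bp in 4 pieces of 836 to 5746 bp. Its H3K4me3 island at the Vav2 start widened from 905 to 1758 bp, and its fold enrichment was 13.5 in wt and 36.0 in wt+TNFα. The Fam20c domain, chr5:138714733-138791975, kept 11.3% of 77243 bp in 5 pieces, and an island of 2793 bp at fold enrichment 21.3 was called at the Fam20c start in wt+TNFα and none in wt. Fam20c encodes the Golgi kinase of secreted proteins. At Gcnt2, which makes branched I antigen glycans, 19.99% of 59544 bp remained, and an island of 2505 bp at 21.4 was called in wt+TNFα alone.

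The Hoxb domain broke up within the cluster. It kept 53.8% of its bases in 5 pieces, 1 of which ran on past the domain to 307702 bp in total. No wt+TNFα H3K27me3 peak lay within 1000 bp of the starts of Hoxb3, Hoxb5 and Hoxb6, and the longest gap measured 24269 bp. No H3K4me3 peak lay inside the domain in wt, and 3 did in wt+TNFα. The one in Hoxb6 spanned 3729 bp at a fold enrichment of 35.02, a second in Hoxb6 458 bp at 8.08, and the one at Hoxb7 3038 bp at 8.12, under H3K27me3.

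At Hoxd the gap coincided with H3K4me3 that was already present in wt. A gap of 22665 bp over Evx2 and Hoxd13 left 80.9% of the domain covered. The wt+TNFα H3K4me3 peak over the Hoxd13 start was 7280 bp wide at a fold enrichment of 38.5, and in wt its place was taken by a pair of peaks of 4221 bp in sum, the one at the start at 24.7. That over the Evx2 start was 7137 bp wide at 25.4, in place of a pair of wt peaks of 5099 bp in sum, the one at the start at 12.02. Small islands at Hoxd11 (4.70) and Hoxd9 (5.40), where H3K27me3 remained, were called only in wt+TNFα. Hoxd1 to Hoxd10 were otherwise under 1 continuous H3K27me3 peak.

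**Figure D4:**
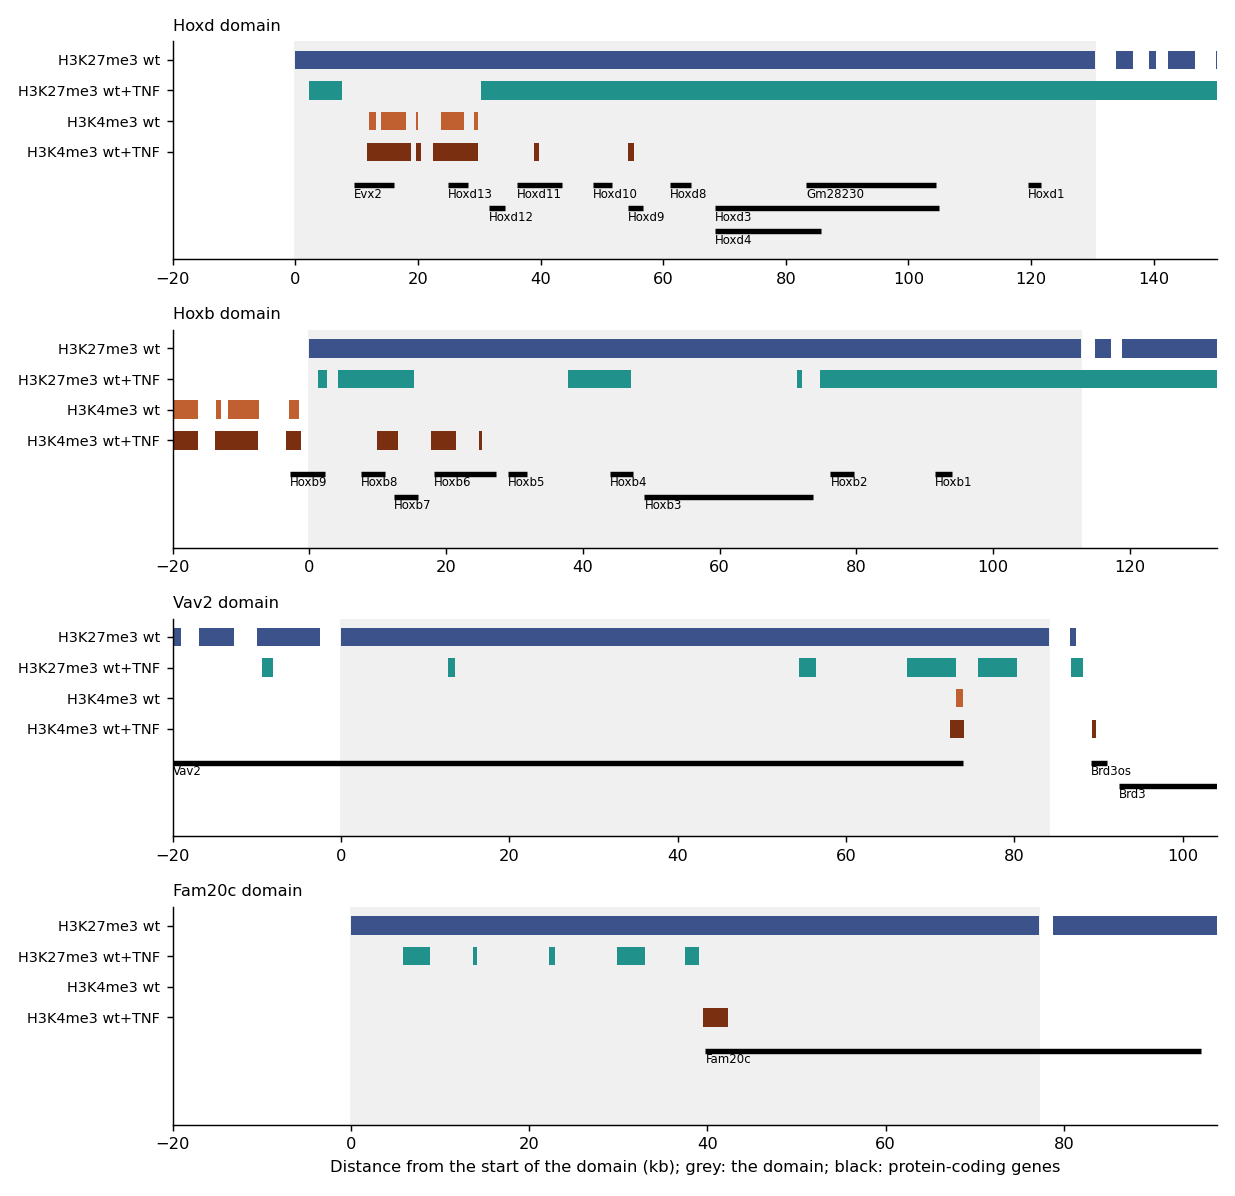
Peaks of the 4 lists over the Hoxd, Hoxb, Vav2 and Fam20c domains, as bars against distance from the start of the domain (kb), with the domain in grey and protein-coding genes in black. H3K4me3 bars of wt+TNFα in these domains lie mainly in the gaps of wt+TNFα H3K27me3, and the bars at Hoxb7, Hoxd9 and Hoxd11 lie under it.

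Bases that wt+TNFα H3K27me3 left uncovered carried more H3K4me3 than covered ones in both conditions. The 1.44 Mb of uncovered domain bases fell in 481 gaps, of which 297 touched a domain edge and 184 were internal. H3K4me3 took up 1.98% of them in wt and 3.94% in wt+TNFα, against 0.389% and 0.413% of covered bases. In domains with a developmental gene the uncovered values were 11.8% and 20.1%, over 0.129 Mb, where 3 of the 60 gaps held H3K4me3 in wt and 4 in wt+TNFα. In shorter wt peaks the uncovered bases had 0.881% and 1.54%.

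The fold enrichment of H3K4me3 followed the same division. Islands were divided by the position of the wt island. Of 115 wt islands also called in wt+TNFα, 21 lay wholly outside wt+TNFα H3K27me3. Of these, 19 had a higher fold enrichment in wt+TNFα, and the median ratio of wt+TNFα to wt was 2.06. Of the 84 wholly under the mark 33 were higher, with a median ratio of 0.913. Over all autosomal H3K4me3 peaks called in both conditions, 60.8% were higher in wt+TNFα and the median ratio was 1.08. Shorter wt peaks had the same order, with ratios of 1.41 outside the mark and 0.989 under it. Several wt islands can fall in 1 wt+TNFα peak and then share its value, as in the Hoxd domain and at Bcl11a. The summits of the wt islands near Spag6, Aatf and Fam171a2 lay outside their domains. Counted by wt+TNFα islands wholly outside the mark, 13 of the 14 also called in wt were higher, with a median ratio of 1.685. Of those wholly under it, 32 of 83 were higher, with a median ratio of 0.913.

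Examples outside the mark were Adamts15 (6.32 in wt and 27.4 in wt+TNFα), Vav2, Inka2 (5.91 and 15.3), Bcl11a, a zinc finger factor of blood and brain (16.1 and 32.8), and the island near Ifne (18.9 and 39.7). The exceptions were Prss16 (20.1 and 12.6) and Sh2b2 (12.2 and 10.2). At Cdkn2a, which encodes the cell cycle inhibitors p16 and p19, the domain was 86.0% covered and its island partly under the mark. The island measured 1332 bp at 27.3 in wt and 1538 bp at 34.5 after TNFα.

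**Figure D5:**
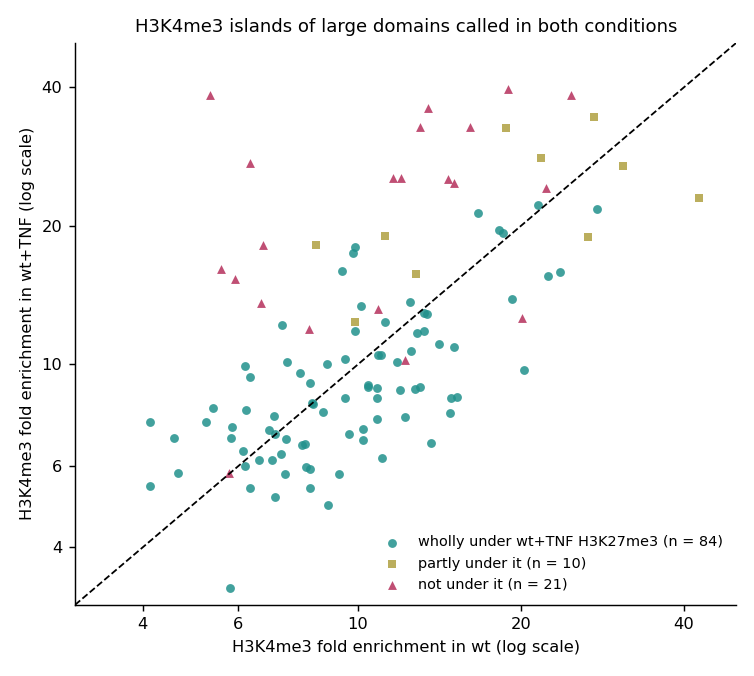
H3K4me3 fold enrichment in wt+TNFα against wt (both log scales) for the 115 wt islands of large domains that were also called in wt+TNFα, 1 point each, by their cover with wt+TNFα H3K27me3. Of 21 islands outside the mark 19 lie above the dashed line of equality, and of 84 wholly under it 33 do.

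Some islands were called in 1 condition alone. Of the wt islands, 20 had no counterpart in wt+TNFα (14.8%, against 3.26% of all autosomal wt H3K4me3 peaks), and of the wt+TNFα islands 33 had none in wt (23.1%, against 6.58%). Of the wt H3K4me3 peaks in shorter wt H3K27me3 peaks, 615 of 696 were also called in wt+TNFα, against 115 of 135 in the domains. For the wt islands, the difference from the whole list was thus shared by shorter peaks. For the wt+TNFα islands, shorter peaks were not counted. Islands were weaker than most H3K4me3 peaks, and the part of peak strength and library depth in these shares was not tested. All 20 wt-only islands lay wholly under wt+TNFα H3K27me3, with a median width of 438 bp, a fold enrichment of 6.41 and 121 CG dinucleotides per kb. They included Qk (9.62), an RNA-binding protein gene, Gsc (8.61), the organiser homeobox gene, Prex1 (8.31), Igdcc3 (7.38) and Cyp26b1 (7.16), the retinoic acid hydroxylase gene. Gata4 (7.02) and Msx1 (6.41) were further developmental examples, chosen after their values were seen.

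The 33 islands called only in wt+TNFα had a lower median CpG density outside the mark than under it. The 9 outside wt+TNFα H3K27me3 had a median of 29.2 CG dinucleotides per kb, with a range of 10.8 to 113.5, and a fold enrichment of 8.08, and included those of Hoxb6 (35.02), Gcnt2 (21.4) and Fam20c (21.3). The 21 wholly under the mark had 111 per kb and 6.16, close to the wt-only islands, and included Neurl1a (21.01), a ubiquitin ligase gene, and Rbm20 (12.7), a splicing factor gene. The remaining 3 lay partly under it. Over all wt+TNFα islands the order was the same, with 55.2 per kb outside the mark and 110 under it. Fam20c, with 21 CG dinucleotides in the window printed above, was richer than Hoxb6 and Gcnt2.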

How the data were processed

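H3K27me3 and H3K4me3 peaks of wt and wt+TNFα organoids were analysed from the 4 deposited peak lists, 1 library each. Reads, input libraries and RNA-seq were not used here. According to the paper and the submitters' processing notes, the authors used fastp for trimming and BWA 2.2 (mem) for alignment to GRCm38/mm10. Duplicates (SAMtools 1.11) and blacklisted regions were discarded, and MACS2 called peaks with the input as control. The notes give MACS2 2.1.0 and another of the study's documents a different version. Broad H3K27me3 peaks were called at a cutoff of 0.01. The names of 3 of the 4 lists mention a spike-in, that of wt+TNFα H3K27me3 does not, and the paper's text names none. In the deposited lists, fold enrichment is a ratio over the local background from the input, and p-values and q-values are −log10. The deposited display score was not used. The authors computed these values per library, so a ratio of fold enrichments between libraries also carries any difference in depth and background, and a change of list membership can be a change at the calling threshold.

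Domains were wt H3K27me3 peaks on the 19 autosomes with end minus start of at least 15000 bp. An overlap of 1 bp counted. Genes were assigned from GENCODE vM21 by any transcript start, lists by symbol pattern, and a promoter was 1000 bp on each side of a start. A piece was a wt+TNFα H3K27me3 peak overlapping a domain. Sequence came from the RefSeq GRCm38.p6 genome, of the same build as the peaks. Intervals are exact binomial (95%). Named were the 10 widest domains, the 10 least covered, the 5 with the most pieces, the 5 with the most H3K4me3 bases per condition, the 5 with islands in 1 condition only by fold enrichment, the 3 widest without a protein-coding start, up to 4 members per gene list and neighbours of the threshold. Not all of them are described. Members, lists and this rule were chosen with earlier results of these data known. Interval counts were tested on 2213 simulated domains, with 0 disagreements with base-by-base counting. Python 3.11.15, numpy 2.4.6, scipy 1.17.1, pysam 0.24.0, samtools 1.23.1 and matplotlib 3.10.9 were used.

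No peak of any list lay in 315 stretches of at least 1000000 bp, among them the first 9237055 bp of chromosome 1 with Sox17 and a stretch of chromosome 10 with Neurod4. Whether regions were filtered there was not tested, and their genes stay in the totals. Without replicates, the precision of a peak's width or position is unknown. Alternatives are given at the end.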

Additional observations from a re-analysis of the deposited data

Results flagged for a closer look

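Chromosome X lay outside the comparisons, which used autosomes. It held 1108 H3K27me3 peaks of at least 15000 bp in wt+TNFα and 2 in wt, and was listed for that difference from the untreated library. The widest of them spanned 465564 bp.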

How the results depend on the processing

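Of 55 values recomputed under 14 alternatives, 23 stayed within the interval or count limit of the value above and 32 moved. For the share of bases covered, that interval took each base as a trial and was very narrow. Every alternative for that share thus counted as moved, even 93.26% against 93.40%. No paired analysis was possible because each condition has 1 library per mark. A minimum width of 10000 bp gave 1775 domains, of which 12.9% held a developmental gene, 11.4% and 12.1% an H3K4me3 island (wt and wt+TNFα) and 13.1% more than 1 piece, with 93.7% of bases covered. At 20000 bp there were 476, with 28.8%, 20.2% and 93.3% for developmental genes, pieces and bases. Joining wt peaks across gaps of up to 3000 bp gave 1605 domains, with 12.4% developmental, 90.6% of bases covered, 72.7% covered over at least 90%, 38.6% in more than 1 piece and 75.02% above the CpG median of shorter peaks. Limiting wt peaks to −log10 q of at least 2 gave 25.9% developmental, 17.6% with a wt island, 94.1% of bases, 88.1% covered over at least 90%, 13.3% in pieces and 20.5% above that CpG median. Among wt+TNFα lists, −log10 q of at least 2 gave 91.7% of bases and 10.0% in pieces, values above the median −log10 q 92.9% and 14.01%, and equal covered length 90.3% and 7.25%. H3K4me3 peaks above their median fold enrichment left 0.604% (wt) and 0.966% (wt+TNFα) of domains with an island. Whole gene bodies gave 13.5% with a developmental gene and weighting by width 26.4%. The share of bases covered stayed between 90.3% and 94.1%, while the share of domains in pieces ran from 7.25% to 38.6%, and the shares with an island and above the CpG median moved most by ratio and by points.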
